A study of Mus musculus with 8 samples.

Results

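The genes described here are 8 cytokine genes that natural killer (NK) cells can transcribe: *Ifng*, *Tnf*, *Lta*, *Ltb*, *Osm*, *Flt3l*, *Csf1* and *Csf2*. They were chosen by name, as secreted or membrane-bound cytokines of NK cells, and each had 1 entry among the 48321 gene symbols of the count files. They were followed in 8 mRNA libraries, 2 for each combination of organ (lung or spleen) and genotype (*Wt* or KO). All mice had the C57/Bl6 background. The KO mice were *Ccl5*ΔPE/ΔPE, which lack the core of the *Ccl5* proximal enhancer in every cell since it was removed from the germline by genome editing, and the *Wt* mice carried the intact locus. Cells were sorted without culture as CD45+ TCRb- NK1.1+, a gate that does not separate NK cells from other innate lymphocytes bearing NK1.1. The labels give no age or treatment, and the study's methods give only a general age range and mixed sexes, not by library. Neither source says whether a group's 2 libraries are from different mice. The p-values therefore cover only the spread between these libraries, which may be technical.

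Interferon-γ, encoded by *Ifng*, is the signature cytokine of NK cells and acts on macrophages and many other cells through the IFNGR1/IFNGR2 receptor. Tumour necrosis factor (*Tnf*) and the lymphotoxins (*Lta* and *Ltb*) form 1 family, in which lymphotoxin-β anchors lymphotoxin-α at the cell surface and the complex signals through the lymphotoxin-β receptor in lymphoid tissue. Oncostatin M (*Osm*) belongs to the interleukin-6 family, FLT3 ligand supports dendritic-cell and lymphoid precursors, and *Csf1* and *Csf2* encode the macrophage and granulocyte-macrophage colony-stimulating factors. Several of these mRNAs can be stored and are held back by decay factors in resting NK cells, so an mRNA level is not a measure of secretion.

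The genes lie on 5 chromosomes of GRCm38 (GENCODE M21 gene bounds). *Ifng* (ENSMUSG00000055170) lies at chr10:118441046-118445892 on the + strand. *Ltb* (ENSMUSG00000024399, chr17:35194439-35196320, +), *Tnf* (ENSMUSG00000024401, chr17:35199381-35202007, -) and *Lta* (ENSMUSG00000024402, chr17:35203165-35205351, -) are neighbours, with 3060 bases between *Ltb* and *Tnf* and 1157 bases between *Tnf* and *Lta*. *Osm* (ENSMUSG00000058755, chr11:4236420-4241026, +) and *Csf2* (ENSMUSG00000018916, chr11:54247271-54249667, -) share chromosome 11 with *Ccl5*, at 79.3 and 29.3 Mb from it. *Flt3l* (ENSMUSG00000110206) lies at chr7:45129788-45136432 (-) and *Csf1* (ENSMUSG00000014599) at chr3:107741048-107760469 (-). A gene antisense to *Csf2*, *Gm12223*, shares 96 exon bases with it and held 2 reads in all, and the sources do not say how strand was handled in counting.

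The promoters of *Ifng* and *Ltb* are shown because these had the highest levels per length of the 8 genes and moved with genotype in 1 case and mainly with organ in the other. The sequences are from RefSeq (GRCm38.p6, + strand) and end at the base before the GENCODE gene start, at chr10:118440796-118441045 for *Ifng* and chr17:35194257-35194438 for *Ltb*. Capitals mark matches to 3 motifs, namely STAT (TTCNNNGAA), the TATA box (TATAAA) and an NF-κB consensus of 10 letters with 2 free positions, each searched on both strands.
Ifng: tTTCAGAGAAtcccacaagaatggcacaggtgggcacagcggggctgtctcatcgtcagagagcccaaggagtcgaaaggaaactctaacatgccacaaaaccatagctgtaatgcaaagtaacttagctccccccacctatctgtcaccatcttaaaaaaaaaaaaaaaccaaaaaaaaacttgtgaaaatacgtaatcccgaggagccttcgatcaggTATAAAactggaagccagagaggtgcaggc
Ltb: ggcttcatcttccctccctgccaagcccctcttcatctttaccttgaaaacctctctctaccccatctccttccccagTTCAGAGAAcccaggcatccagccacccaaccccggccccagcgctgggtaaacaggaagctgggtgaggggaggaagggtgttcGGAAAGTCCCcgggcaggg
In *Ifng* the STAT match began at position -249 and the TATA box at -30 from the RefSeq start. In *Ltb* the STAT match began at -172 and the NF-κB match, read on the reverse strand, at -87 from its RefSeq start, which lies inside the GENCODE gene bounds. Of 32817 RefSeq promoter windows, 8.3% held the STAT letters, 13.6% the TATA box and 1.6% the NF-κB letters. AP-1 (TGANTCA), RUNX (TGTGGT) and T-box (TCACACC) letters, present in 7.8%, 16.8% and 4.0% of windows, had no match in the windows of the 7 members with an entry. The other matches among members were a TATA box at -29 in *Tnf*, STAT at -152 and -16 with a TATA box at -167 in *Lta*, and NF-κB at -154 in *Csf1*.

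Between 3132963 and 26482366 reads per library were assigned to genes, and 3 reads, taken as the floor of detection, stood for 0.113 to 0.958 CPM (read counts relative to the TMM-scaled library size). Counting intervals and floors cover counting error only. The variance between the 2 libraries of a group was 1.2 to 1.42 times that of counting alone. *Ccl5*, the gene whose enhancer was deleted, was at 18930 ± 830 CPM in *Wt* lung and 3094 ± 140 in KO lung, and at 16170 ± 720 in *Wt* spleen and 2554 ± 170 in KO spleen (SD, n = 2 in each), so that all KO libraries were low. The 11 NK markers summed to 51600 to 53100 CPM in *Wt* lung, 41300 to 41800 in KO lung, 37700 to 38200 in *Wt* spleen and 48700 to 51000 in KO spleen. The receptor gene *Ncr1* had a mean of 2840 CPM or more in every group. T-cell markers summed to 48.5 to 68.9 CPM in lung and 158 to 178 in spleen, and B-cell markers to 5.18 to 8.3 in lung and 38.2 to 44.4 in spleen. The lung structural markers summed to 323 to 332 CPM in *Wt* lung and 455 to 497 in KO lung. Of the 6 tested, 4 were higher and 1 was lower in KO lung than in *Wt* lung, where 29.2% of all genes were higher and 26.4% lower. *Scgb1a1* of this list was at 85.3 CPM in *Wt* lung and 62.2 in KO lung. *Sftpc* of alveolar epithelium was at 154 CPM in *Wt* lung and 267 in KO lung, above *Ifng* in the same groups, and had no read in any spleen library. The part of such cells in the lung differences between KO and *Wt* was not tested. The myeloid sums of 2310 to 3410 CPM were mostly *Fcer1g*, which NK cells also express, and *S100a8*, *S100a9* and *Adgre1* were at 0 everywhere. Mast cell and basophil markers summed to 21.5 to 59 CPM, mostly *Kit*, with *Ms4a2* at 0, markers of other innate lymphoid cells to 421 to 517, mostly *Gata3*, and platelet and erythroid markers to 55.4 to 60 in lung and 2 to 2.99 in spleen.

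Of the 8 genes, 4 were expressed well above the floor in every library and 4 were at or near it. Per kilobase of exons, the scale on which genes can be compared, *Ifng* had mean levels of 72.2 CPM in *Wt* lung, 141 in KO lung, 62.6 in *Wt* spleen and 86 in KO spleen. *Ltb* followed at 44.4, 51.6, 180 and 135 CPM per kb in the same order of groups. *Flt3l* lay between 14.2 and 16.3 and *Osm* between 6.58 and 24.5, while *Tnf*, *Lta*, *Csf1* and *Csf2* reached at most 1.19 CPM per kb in any group mean. The leading cytokine mRNA by this measure was *Ifng* in both lung groups and *Ltb* in both spleen groups.

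**Figure D1:**
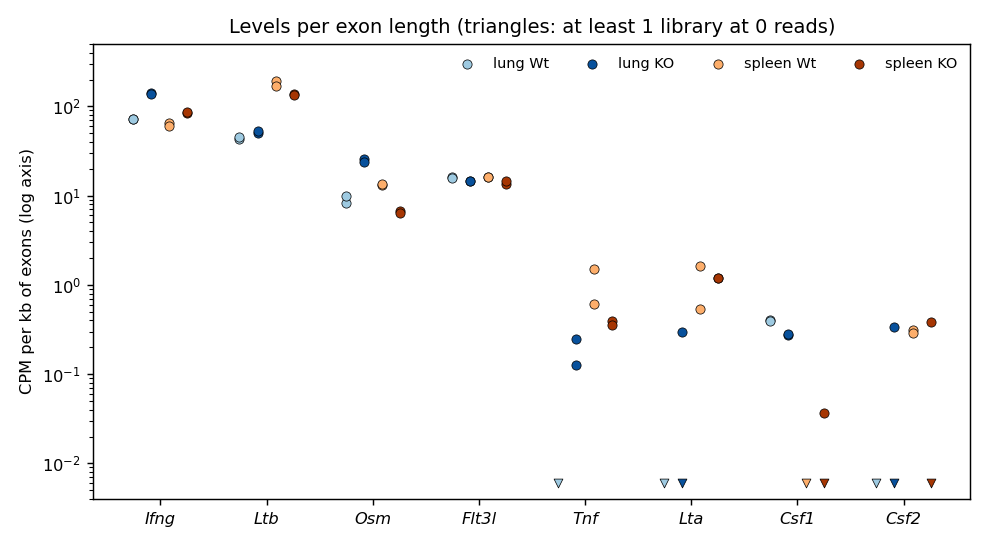
Levels of the 8 genes in CPM per kb of exons on a log axis, 1 point per library, coloured by group. Triangles at the bottom mark groups with a library at 0 reads. *Ifng* and *Ltb* stood highest, *Flt3l* and *Osm* below them, and the other 4 genes lay around or under 1.

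Only 5 of the 8 genes, *Ifng*, *Ltb*, *Osm*, *Flt3l* and *Csf1*, passed edgeR's filter on low counts, the last through its lung libraries alone, where it was higher. They were tested among 12595 genes by edgeR's quasi-likelihood test (Benjamini-Hochberg adjusted over all of them) and called at an adjusted p of 0.05. In lung, 3 of these 5 were higher in KO and none lower, where 55.6% of all genes tested were called, 29.2% higher and 26.4% lower. In spleen, 1 was higher and 2 were lower in KO, where 57.1% of all genes were called, 28.2% higher and 28.9% lower. Between organs, 2 were higher and 2 lower in lung than in spleen in *Wt*, with 57.0% of all genes called (27.7% higher, 29.3% lower), and 3 were higher and 1 lower in KO, with 65.6% called (33.9% higher, 31.7% lower). These organ counts include *Csf1*, which entered only by its lung level and so had to differ. The KO effect was greater in lung than in spleen for 3 genes and smaller for none, with 61.6% of all genes called (32.5% greater, 29.0% smaller). With most genes called, these counts are close to the background and say nothing particular about the cytokine genes.

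*Ifng* was higher in KO than in *Wt* NK cells of both organs. In lung, its level was 92.7 and 94.3 CPM in the *Wt* libraries (746 and 364 reads) and 184.6 and 180.5 CPM in the KO libraries (902 and 1327 reads). In spleen, it was 83.4 and 78.8 CPM in *Wt* (334 and 674 reads) and 109.4 and 113.3 CPM in KO (335 and 2959 reads). Both KO libraries lay above both *Wt* libraries in each organ, and the KO lung libraries were the highest of all 8. The group means were 93.5 ± 1.1 and 182.6 ± 2.9 CPM in lung and 81.1 ± 3.3 and 111.3 ± 2.8 CPM in spleen (SD, n = 2). The difference was 0.97 on the log2 scale in lung (SE 0.059, 1.95-fold, adjusted p = 2.26e-16) and 0.48 in spleen (SE 0.06, 1.4-fold, adjusted p = 1.34e-08), in edgeR's quasi-likelihood test. The 2 effects differed by 0.48 (SE 0.085, adjusted p = 7.03e-06). In sorted bulk cells, more cells with the transcript and more transcript per cell cannot be told apart.

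An offset that removes each library's own trend with gene GC content gave an *Ifng* difference of 1.12 in lung and 0.35 in spleen. With the biological coefficient of variation set to 0.2 instead of the 2.5% that these libraries gave, the lung difference was still called (adjusted p = 0.0137), and the spleen difference (adjusted p = 0.395) and the difference between organs (adjusted p = 0.446) were not. *Wt* lung exceeded *Wt* spleen by only 0.21 (SE 0.068, adjusted p = 0.0068), and this call was lost without *Wt* spleen replicate 2 (0.16, adjusted p = 0.155), with library totals as the scale (0.11, adjusted p = 0.18) and with the GC offset (0.11, adjusted p = 0.172). In KO, lung exceeded spleen by 0.70 (SE 0.052, 1.62-fold, adjusted p = 2.13e-14).

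**Figure D2:**
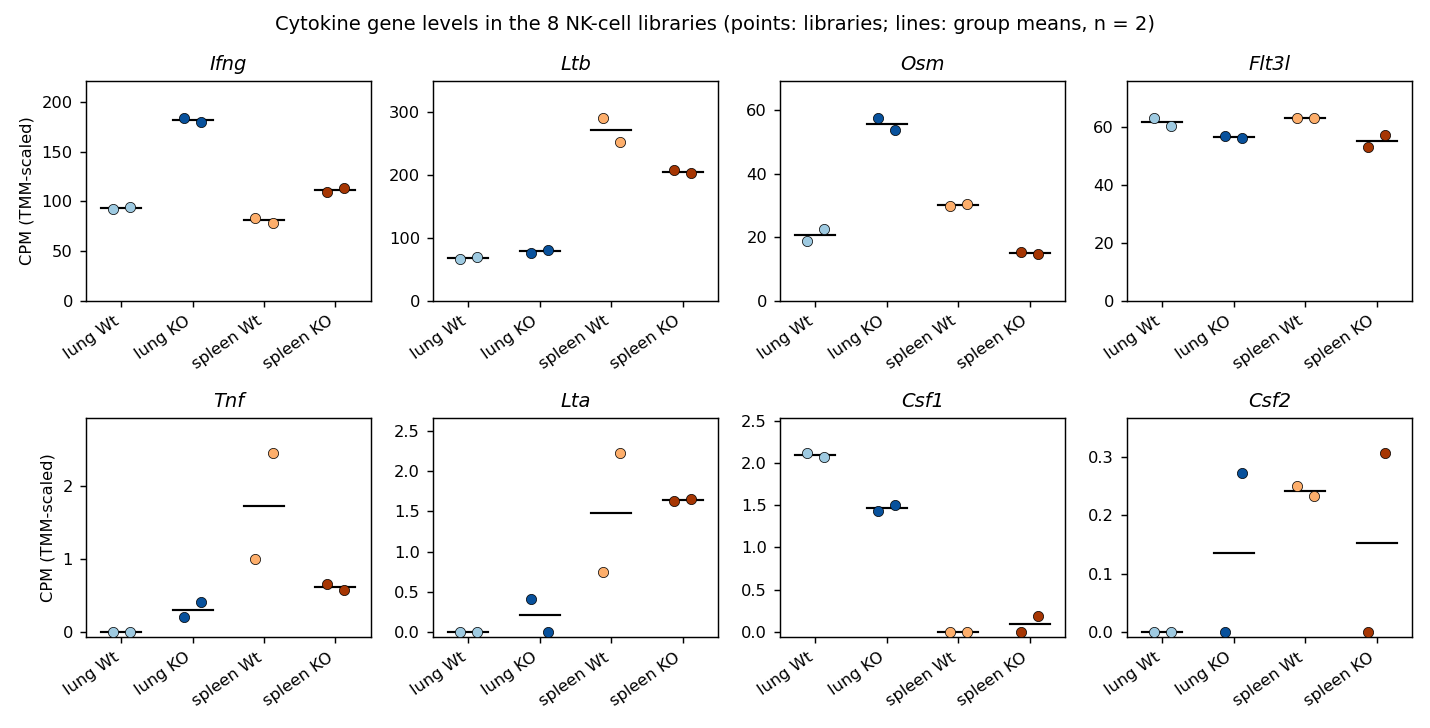
TMM-scaled CPM of each gene in the 8 libraries (points) with the mean of each group (lines, n = 2), each panel on its own linear axis. *Ifng* was highest in KO lung, *Osm* was high in KO lung and low in KO spleen, *Ltb* was higher in spleen than in lung, and *Flt3l* was nearly level.

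*Osm* moved in opposite directions in the 2 organs. In lung, it was at 18.8 and 22.5 CPM in *Wt* (151 and 87 reads) and at 57.7 and 53.7 CPM in KO (282 and 395 reads). In spleen, it was at 29.7 and 30.6 CPM in *Wt* (119 and 262 reads) and at 15.3 and 14.6 CPM in KO (47 and 380 reads). The groups did not overlap in either organ, with KO lung highest and KO spleen lowest of the 4 groups. *Osm* rose by 1.47 on the log2 scale in KO lung (SE 0.11, 2.76-fold, adjusted p = 2.85e-14) and was changed by -1.05 in KO spleen (SE 0.11, 2.07-fold lower, adjusted p = 2.66e-10), in edgeR's quasi-likelihood test. The test of the difference between the 2 effects gave 2.51 (SE 0.15, adjusted p = 8.18e-17). All 3 calls held under the GC offset, with differences of 1.28 in lung and -0.88 in spleen, and under the assumed coefficient of variation of 0.2 (adjusted p = 0.000153 in lung, 0.021 in spleen and 2.41e-06 for the difference between them).

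The order of the organs for *Osm* depended on genotype. Against spleen, lung was at -0.60 in *Wt* (SE 0.12, 1.51-fold lower, adjusted p = 5.94e-05) and at 1.92 in KO (SE 0.096, 3.78-fold higher, adjusted p = 1.32e-19). Myeloid cells are a known source of *Osm*. The myeloid marker sum was 2900 to 3130 CPM in *Wt* lung, 2610 to 2660 in KO lung, 2310 to 2470 in *Wt* spleen and 3220 to 3410 in KO spleen. Without *Fcer1g* it was 159 to 163, 170 to 181, 166 to 173 and 174 to 176 CPM in the same order of groups. Most of this remainder was a single gene, *Itgax*, at 126, 136, 149 and 147 CPM in that order. Of 5 myeloid markers tested, 1 was higher and 2 were lower in KO lung, where 55.6% of all genes were called. In KO spleen 2 were higher and none lower, where 57.1% of all genes were called. *Lyz2* had means of 14 CPM in *Wt* lung and 24.4 in KO lung, and of 2.69 and 2.87 in *Wt* and KO spleen. *Cd68* was at 15 and 9.77 CPM in *Wt* and KO lung and at 13.9 and 20.1 in *Wt* and KO spleen. The part of such cells in the *Osm* difference was not tested. Of the mast cell and basophil markers, *Kit* was at 19 CPM in both lung groups, 56.8 in *Wt* spleen and 23 in KO spleen. *Cpa3* was at 1.51 CPM in *Wt* lung and 3.31 in KO lung, and at 2.05 in *Wt* spleen and 3.93 in KO spleen. The part of mast cells in the *Osm* difference was not tested either.

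**Figure D3:**
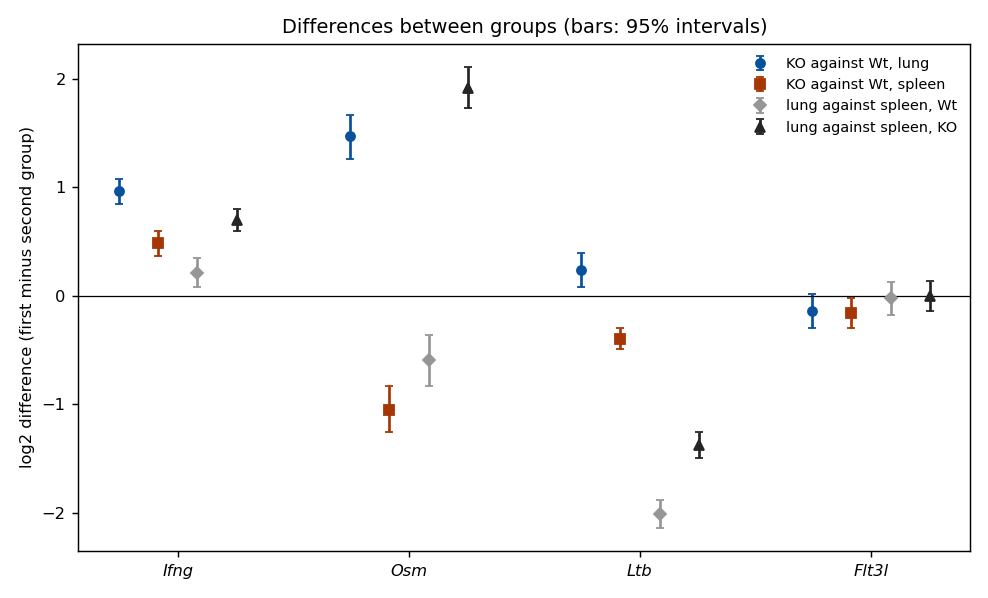
Differences on the log2 scale (points) with their 95% intervals (bars) for the 4 well-expressed genes in the 4 comparisons, from the fit of all 8 libraries. Points above 0 are higher in KO, or in lung. *Osm* had values of opposite sign in the 2 organs, and the organ difference was below 0 for *Ltb* in both genotypes.

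*Ltb*, the membrane-bound lymphotoxin, had the widest difference between organs in *Wt* of the 4 well-expressed genes. It was at 65.6 and 68.9 CPM in *Wt* lung (528 and 266 reads) and 75.9 and 80.5 CPM in KO lung (371 and 592 reads). In spleen, it was at 291.5 and 253 CPM in *Wt* (1167 and 2165 reads) and 207.3 and 203.2 CPM in KO (635 and 5306 reads). All spleen libraries lay above all lung libraries. Lung was lower by 4.02-fold in *Wt* (log2 -2.01, SE 0.066, adjusted p = 5.1e-25) and by 2.6-fold in KO (log2 -1.38, SE 0.063, adjusted p = 7.19e-21), in edgeR's quasi-likelihood test, and the calls held under every alternative run. B and T cells express *Ltb*, and their markers moved with it. All 4 B-cell markers tested were lower in lung in both genotypes, and of T-cell markers 3 of 4 in *Wt* and 4 of 4 in KO. Of all genes, 29.3% were lower in lung in *Wt* and 31.7% in KO. *Cd79b* was at 4.5 to 4.55 CPM in lung and 20.4 to 22.3 in spleen. The part of B and T cells in the *Ltb* difference was not tested.

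The genotype differences of *Ltb* were small and depended on how the libraries were scaled. KO was higher in lung by 0.24 (SE 0.081, adjusted p = 0.0129) and lower in spleen by 1.31-fold (log2 -0.39, SE 0.052, adjusted p = 3.85e-08), and the 2 effects differed by 0.63 (SE 0.095, adjusted p = 4.86e-07). *Ltb* has the most GC-rich exons of the 8 genes, 62.0% against 44.0% for *Ifng*. Under the GC offset the differences were -0.16 in lung (adjusted p = 0.0605), -0.03 in spleen (adjusted p = 0.575) and -0.13 between organs (adjusted p = 0.19), so that no genotype call remained and 2 signs turned. The lung call was also lost without *Wt* lung replicate 1 (0.19, adjusted p = 0.172), without KO lung replicate 2 (0.18, adjusted p = 0.156) and in DESeq2 (0.22, adjusted p = 0.0844).

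*Tnf* and *Lta*, the neighbours of *Ltb* on chromosome 17, were barely detected in these unstimulated cells. *Tnf* had 0 and 0 reads in *Wt* lung, 1 and 3 in KO lung, 4 and 21 in *Wt* spleen and 2 and 15 in KO spleen. *Lta* had 0 and 0 reads in *Wt* lung, 2 and 0 in KO lung, 3 and 19 in *Wt* spleen and 5 and 43 in KO spleen. Neither had a read in *Wt* lung, where the floor of 3 reads over both libraries was 0.241 CPM. Against that floor, with the spleen reads taken as counted, *Wt* lung was at least 8.51-fold lower than *Wt* spleen for *Tnf*. For *Lta* it was at least 7.49-fold lower. The 95% counting intervals of the lung to spleen ratio, which also cover error in the spleen reads, reached 0.156 and 0.179. The bounds against the floor rest mostly on *Wt* spleen replicate 2, with 2.454 and 2.22 CPM against 0.9992 and 0.7494 in replicate 1. Without it the bound for *Tnf* was 4.27, and *Lta* was left at the floor with no bound. Without *Wt* lung replicate 1 the bounds were 2.73 and 2.4.

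In a fit without the filter (21508 genes with a read), *Tnf* was lower in KO spleen than in *Wt* spleen (log2 -1.71, SE 0.5, adjusted p = 0.00235 in edgeR's quasi-likelihood test), where 37.0% of all genes were called, as they were for the organs in *Wt*. The ratio of its summed reads was 0.28, with a 95% counting interval of 0.142 to 0.539. *Tnf* was at 1.73 ± 1 CPM in *Wt* spleen and 0.614 ± 0.055 in KO spleen (SD, n = 2), with 21 of the 25 *Wt* reads in 1 library. For *Lta* in spleen the ratio of KO to *Wt* was 0.897 (0.531 to 1.56), a range that holds both a lower and a higher level. In KO, *Lta* was lower in lung than in spleen, with a ratio of 0.103 (0.0121 to 0.393; adjusted p = 2.83e-05).

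*Flt3l* was the steadiest of the 4 well-expressed genes. It was at 63.0 and 60.4 CPM in *Wt* lung, 56.9 and 56.1 in KO lung, 63.2 and 63.0 in *Wt* spleen, and 52.9 and 57.2 in KO spleen. The KO libraries were below the *Wt* libraries in both organs, and the organs overlapped within each genotype. The differences between KO and *Wt* were -0.14 in lung (95% interval -0.29 to 0.02, adjusted p = 0.139) and -0.16 in spleen (-0.30 to -0.02, adjusted p = 0.0502), neither called by edgeR's quasi-likelihood test. Lung and spleen differed by -0.02 in *Wt* (-0.17 to 0.13) and by 0.00 in KO (-0.14 to 0.14). Under the GC offset the KO lung difference was -0.33 (adjusted p = 0.000577) and that of spleen 0.01.

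*Csf1* was found in lung and hardly in spleen. It had 17 and 8 reads in *Wt* lung, 7 and 11 in KO lung, 0 and 0 in *Wt* spleen, and 0 and 5 in KO spleen, so that every lung library exceeded every spleen library in CPM. With the lung reads taken as counted, *Wt* lung was at least 8.16-fold higher than *Wt* spleen against the floor of 3 reads over both libraries. Without *Wt* spleen replicate 2 it was at least 2.6-fold higher. The 95% counting interval of the lung to spleen ratio in *Wt*, which also covers error in the lung reads, began at 6.16. KO lung was 8.9-fold higher than KO spleen (counting interval 3.18 to 30.7), a value set by the 5 reads of KO spleen replicate 2. Without that library KO lung was at least 1.57-fold higher against the floor, with the lung reads again taken as counted. No test is given for the organs, since *Csf1* entered the fit through its lung level. KO and *Wt* differed in lung by -0.51 (SE 0.44, adjusted p = 0.339), a difference that was not detectable at this depth. Fibroblasts and endothelium transcribe *Csf1*. Most lung structural markers tested had no read in spleen and entered the fit only through lung. No count of them is therefore given for the organs. The highest of the list in lung was *Sftpc* of alveolar epithelium, and *Col1a1*, *Col1a2* and *Dcn* were at 1.46 CPM or less in every group. *Cldn5* and *Cdh5* were at 0 in spleen, and *Pecam1* was at 59.1 CPM in *Wt* lung and 69.9 in *Wt* spleen. From *Wt* to KO lung, *Csf1* went from 2.093 to 1.465 CPM. *Cdh5* (9 to 6.23) and *Col1a1* (1.46 to 0.34) had lower means in KO lung. *Cldn5* (4.53 to 12.1), *Pecam1* (59.1 to 79.2), *Col1a2* (0.124 to 1.16) and *Dcn* (1.14 to 1.26) had higher ones. The part of fibroblasts and endothelium in the *Csf1* difference was not tested. *Csf2* had 13 reads in all 8 libraries, of which 8 were in KO spleen replicate 2, the deepest library, and the KO spleen to *Wt* ratio of 1.1 had a counting interval of 0.263 to 6.42. No difference in *Csf2* was called in the fit without the filter, in which 35.5% of all genes were called for KO in lung, 44.6% for the organs in KO and 38.4% for the difference of the KO effects.

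Across the 8 libraries, the genes whose log2 CPM followed *Ifng* closely among 8512 candidates included *Vgll4* (Pearson r = 0.990), *Enpp4* (0.986), *F2rl2* (0.978) and *Gsk3a* (0.972). *Vgll4* was at mean levels of 117 and 165 CPM in *Wt* and KO lung and of 112 and 125 CPM in *Wt* and KO spleen. *Ltb* was most closely followed by *Car2* (0.995), *Cxcr3* (0.993), *Ppp1ca* (0.992), *Tnfsf14* (0.992) and *Il16* (0.987). *Tnfsf14*, which encodes LIGHT, another ligand of the lymphotoxin-β receptor, had means of 20.5 CPM in *Wt* lung, 23 in KO lung, 42.4 in *Wt* spleen and 35.3 in KO spleen. These points are libraries that share groups, depth and base composition, and the correlations are a description.

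Of the receptor genes for these cytokines, *Ifngr1* and the 2 TNF receptor genes had the most reads. Of 14 receptor genes, 7 were tested. In KO lung 6 were higher and none lower (median log2 difference 0.65, against 0.02 for all genes), and in KO spleen none was higher and 3 were lower, although the median was above 0 (0.15, against 0). Of all genes, 55.6% were called in lung and 57.1% in spleen. DESeq2 called 4 higher in lung and 2 lower in spleen, and with the coefficient of variation of 0.2, 1 was higher in lung and none was called in spleen. The lung counts include *Lifr*, which entered the fit only by its KO lung level and so had to be higher. *Ifngr1*, the ligand-binding chain for interferon-γ, was at 2410 ± 60 CPM in *Wt* lung and 2760 ± 23 in KO lung, 2030 ± 37 in *Wt* spleen and 1900 ± 23 in KO spleen (SD, n = 2). These are small shifts, 0.19 in lung (adjusted p = 8.5e-06) and -0.10 in spleen (adjusted p = 0.014), the latter lost without *Wt* spleen replicate 2 (adjusted p = 0.143) or KO spleen replicate 1 (adjusted p = 0.0721). Its signalling partner *Ifngr2* had 33 reads in all libraries.

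*Tnfrsf1b*, which encodes TNF receptor 2, was at 51.6 ± 0.33 and 72.7 ± 4.1 CPM in *Wt* lung and KO and at 53.8 ± 0.54 and 34.6 ± 3.3 in spleen (SD, n = 2). It rose by 0.49 in KO lung (adjusted p = 3.4e-06) and was changed by -0.57 in KO spleen (adjusted p = 1.35e-07). *Tnfrsf1a*, the gene of TNF receptor 1, differed by 0.66 in lung (adjusted p = 3.94e-05) and by -0.30 in spleen (adjusted p = 0.0196), where the call was lost under the GC offset (adjusted p = 0.467), in DESeq2 (0.346) and without *Wt* spleen replicate 2 (0.299) or KO spleen replicate 2 (0.492). *Osmr*, *Flt3* and *Csf2rb2* had no read in any library, *Ltbr* had 20 reads in all, and *Il6st*, the shared signal chain for oncostatin M, was at 4.43 to 8.61 CPM. *Csf2ra* (1.97 CPM in *Wt* lung and 4.05 in KO lung) was called higher in KO lung from few reads. *Lifr* was at 0.13 and 2.62 CPM in the same groups, and no test of it is given, since it entered through KO lung. The call of *Csf2ra* was lost in DESeq2 (adjusted p = 0.149), under the GC offset (0.092), with the coefficient of variation of 0.2 (0.111) and without *Wt* lung replicate 1 (0.208).

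Among 21 transcription regulators of these genes, 11 were higher and 3 lower in KO lung (median 0.10, against 0.02), and 6 were higher and 10 lower in KO spleen (median -0.18, against 0), where 55.6% and 57.1% of all genes were called. With the coefficient of variation of 0.2, 6 were higher and none lower in lung, and none higher and 5 lower in spleen. The AP-1 subunit genes had the widest ranges. *Junb* was at 43.6 ± 4.2 CPM in *Wt* lung and 191 ± 2.7 in KO lung, and at 66.6 ± 5.1 in *Wt* spleen and 20.7 ± 0.25 in KO spleen (SD, n = 2). The log2 differences were 2.16 in lung (adjusted p = 2.76e-24) and -1.65 in spleen (adjusted p = 1.96e-18). *Jund* followed with 1.69 and -1.97 (adjusted p = 1.74e-19 and 8.38e-21), *Jun* was at 1.49 and -1.44 (adjusted p = 2e-13 and 2.99e-07), and *Fos* was higher in KO lung by 1.70 (adjusted p = 1.08e-17) and not called in spleen (-0.21, adjusted p = 0.57).

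*Jun*, *Junb* and *Jund* were called with the signs of *Osm* in both organs, *Fos* in lung alone, and *Ifng* was higher in KO in both. *Prdm1*, which encodes the repressor Blimp-1, went the other way, with -0.86 in lung (adjusted p = 1.26e-07) and 0.55 in spleen (adjusted p = 0.000114). *Ets1* (-0.46) and *Nfatc3* (-0.19) were the other regulators lower in KO lung, and *Nfatc2* (0.63) and *Batf* (0.37) the other leading ones higher in KO spleen. *Nfatc3* was not called under the GC offset (-0.04, adjusted p = 0.556), *Nfatc2* not without KO spleen replicate 2 (adjusted p = 0.0883) and *Batf* not without *Wt* spleen replicate 2 (adjusted p = 0.216). *Jund*, at 67.1% GC, and *Junb*, at 62.6%, are richer in GC than *Ltb*, and their differences under the GC offset were 1.18 and 1.75 in lung and -1.55 and -1.28 in spleen.

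**Figure D4:**
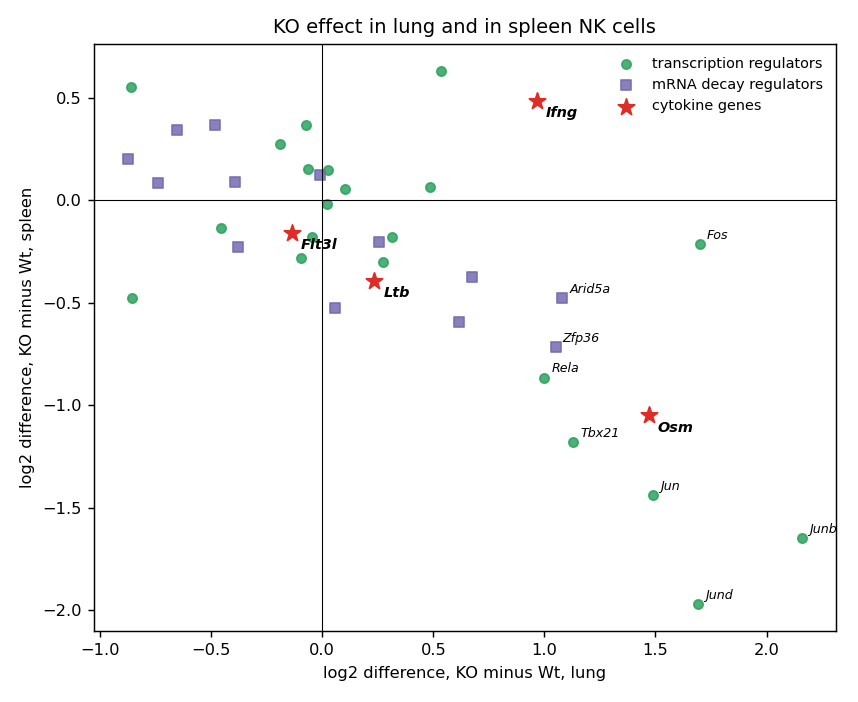
KO minus *Wt* on the log2 scale in lung (horizontal) and spleen (vertical) for the tested transcription regulators (circles), mRNA decay regulators (squares) and the 4 well-expressed cytokine genes (stars). *Osm* lay with *Jun*, *Junb*, *Jund*, *Rela* and *Tbx21* to the right of and below 0, and *Ifng* lay above 0 on both axes.

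Proteins that bind AU-rich or stem-loop elements limit the life of *Ifng*, *Tnf*, *Osm* and *Csf2* mRNA. Of 14 such decay and stability regulators, 13 were tested, with 5 higher and 6 lower in KO lung (median -0.01, against 0.02) and 3 higher and 7 lower in KO spleen (median -0.20, against 0), where 55.6% and 57.1% of all genes were called. In spleen DESeq2 called none higher and 4 lower. With the coefficient of variation of 0.2, 2 were higher and 1 lower in lung and none was called in spleen. *Zfp36*, which encodes the decay factor tristetraprolin, was at 49.5 ± 2.6 and 104 ± 5.5 CPM in *Wt* lung and KO and at 94.1 ± 7.9 and 55 ± 2.6 in spleen (SD, n = 2), a change of 1.05 in lung (adjusted p = 4.51e-14) and -0.72 in spleen (adjusted p = 3.48e-11). *Arid5a*, which stabilizes several cytokine mRNAs, differed by 1.08 (adjusted p = 4.3e-12) and -0.48 (adjusted p = 7.9e-06). The decay factor gene *Zfp36l1* was higher in KO lung by 0.67 (adjusted p = 1.93e-08).

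The genes lowest against *Wt* in KO lung were *Tia1* (-0.88), *Rc3h1*, which encodes Roquin-1 (-0.74), and *Hnrnpd*, which encodes AUF1 (-0.66), with adjusted p = 3.66e-13, 2.9e-13 and 1.8e-06. In KO spleen, *Zc3h12a*, the gene of Regnase-1 (-0.59, adjusted p = 0.0109), and *Khsrp* (-0.53, adjusted p = 0.00388) were lower, and *Zc3h12d* (0.37), *Hnrnpd* (0.34) and *Tia1* (0.20) were higher. Under the GC offset *Zc3h12a* (adjusted p = 0.103), *Khsrp* (0.149) and *Tia1* (0.79) were not called in spleen, and without KO spleen replicate 2 neither were *Zc3h12a* (0.415), *Khsrp* (0.414), *Tia1* (0.84) and *Hnrnpd* (0.0975). *Zc3h12d*, *Zc3h12a* and *Tia1* were lost without *Wt* spleen replicate 2 as well (adjusted p = 0.28, 0.0669 and 0.105). *Zc3h12c* had no read.

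The sheddase genes that release TNF from the surface were higher in KO lung, *Adam17* by 0.49 (adjusted p = 2.69e-08) and *Adam10* by 0.26 (adjusted p = 5.52e-05). In KO spleen *Adam17* was changed by -0.16 (adjusted p = 0.00992; not called without *Wt* spleen replicate 2 or KO spleen replicate 2, adjusted p = 0.306 and 0.204) and *Adam10* by -0.01 (adjusted p = 0.89).

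NK cells themselves respond to interferon-γ, and of 21 genes known as its targets 19 were tested. In KO lung 9 were higher and 4 lower (median 0.13, against 0.02), and in KO spleen 8 were higher and 7 lower (median 0.02, against 0). Of all genes tested, 55.6% were called in lung and 57.1% in spleen. In spleen DESeq2 called 3 higher and 6 lower, and library totals gave 4 and 7. With the coefficient of variation of 0.2, 4 were higher and none lower in lung, and none higher and 1 lower in spleen. *Socs1*, a feedback inhibitor of the pathway, was at 6.24 ± 1.4 and 26.1 ± 1.6 CPM in *Wt* lung and KO and at 29.9 ± 2.9 and 7.28 ± 1.5 in spleen (SD, n = 2), with log2 differences of 2.15 (adjusted p = 4.08e-13) and -1.85 (adjusted p = 1.37e-14). *Socs3* was higher in KO lung by 1.63 (adjusted p = 7.19e-05). The chemokine gene *Cxcl10* was at 0 in both *Wt* lung libraries, at 1.26 ± 0.33 CPM in KO lung, 2.73 ± 0.38 in *Wt* spleen and 4.64 ± 0.1 in KO spleen (SD, n = 2).

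The GTPase gene *Gbp7* was the lowest of the called genes of the list in KO lung (-0.49, adjusted p = 3.89e-12), followed by *Irgm1* and *Gbp2* at -0.20 and -0.15 (adjusted p = 0.0438 for each), whose calls were lost in DESeq2 (adjusted p = 0.218 and 0.158) and under the GC offset (0.391 and 0.275). In KO spleen, *Cd274* (PD-L1, -0.82, adjusted p = 8.29e-05) and the peptide transporter gene *Tap1* (-0.66, adjusted p = 1.63e-10) were lower, and *Cxcl10* (0.83), *Iigp1* (0.56) and *Gbp3* (0.30) were higher. The last 3 were not called without KO spleen replicate 2 (adjusted p = 0.206, 0.231 and 0.199).

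*Ifng* and *Osm* kept the sign of their KO difference in both organs under every alternative, from 0.95 to 1.12 for *Ifng* and 1.28 to 1.56 for *Osm* in lung, and from 0.35 to 0.515 for *Ifng* and -1.11 to -0.88 for *Osm* in spleen. The KO difference of *Ltb* ranged from -0.16 to 0.33 in lung and from -0.51 to -0.02 in spleen, and that of *Flt3l* from -0.33 to -0.04 and from -0.26 to 0.01.

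**Figure D5:**
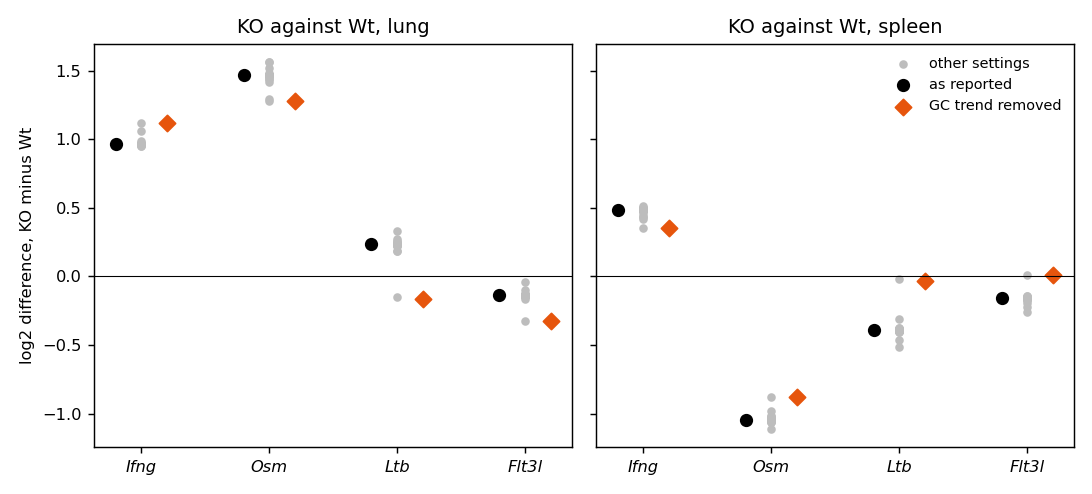
KO minus *Wt* on the log2 scale for the 4 well-expressed genes in lung (left) and spleen (right), as reported (black), after removal of each library's GC trend (orange diamonds) and under the other alternatives (grey). *Ifng* and *Osm* stayed on 1 side of 0 in each organ, while *Ltb* crossed 0 in lung and *Flt3l* in spleen when the GC trend was removed.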

How the data were processed

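Sorted lung and spleen NK cells were profiled by mRNA-seq with reads of 50 bp. The authors aligned them to mm10 with HISAT2 2.1.0, counted them per gene with HTSeq and deposited raw read counts for each symbol, without normalization. Strand setting and annotation version are not given in the sources used here. The members and all gene lists were chosen with earlier results of these data known.

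Counts were analysed with edgeR 4.0.16 (R 4.3.3, limma 3.58.1). Genes were kept by filterByExpr (12595 of 48321 symbols), scaled by TMM (factors 0.954 to 1.03) and fitted with 4 group means over all 8 libraries. The quasi-likelihood test was two-sided, standard errors came from its F statistic, and p-values were adjusted over all genes. Members that failed the filter took values from a fit without it. Of assigned and unassigned reads, 44.3% to 46.6% were counted on genes, and 52.7% to 55.0% had no feature, which stayed out of library sizes. An exact permutation test of 2 against 2 libraries cannot give a p below 0.333 and was not used.

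GENCODE M21, which holds 46394 of the symbols, gave positions, exon lengths and the GC content of 97% of the genes tested and of all 8 members. Promoters of 7 of the 8 members came from RefSeq (GRCm38.p6). The genes named are the members, the 5 most like *Ifng* and *Ltb* by Pearson r (mean log2 CPM above 3, prior count 2), and of each list up to 3 called genes with the widest difference in each direction, its receptors and those at 0. Some genes under this rule are not reported here. *Rela*, *Tbx21*, *Ncr1*, *Sftpc*, *Scgb1a1*, *Col1a1*, *Col1a2*, *Dcn*, *Cldn5*, *Cdh5*, *Pecam1*, *Cd79b*, *Lyz2*, *Cd68*, *Itgax*, *Kit*, *Cpa3*, *Gata3* and *Fcer1g* were chosen after their values were seen.

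Alternatives were DESeq2 1.42.0 and edgeR's likelihood ratio test, scaling by library totals, RLE or upper quartiles, a filter of 10 counts in each library or none, only the 4 libraries of a comparison, the replicate number as a block, an offset removing each library's trend with GC content (spline, 5 degrees of freedom), a coefficient of variation set to 0.2, and leaving out libraries one at a time with the genes tested kept fixed. Running them for the listed genes, the bounds with a library left out and the myeloid sum without *Fcer1g* were added after seeing the data. The fit was tested on simulated counts.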

Additional observations from a re-analysis of the deposited data

Results flagged for a closer look

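The effect of the KO genotype differed between lung and spleen for 3 of the 5 genes tested, in a test of the difference itself (edgeR's quasi-likelihood test over all 8 libraries), where 61.6% of all genes were called. For *Osm* the KO effect in lung exceeded that in spleen by 2.51 on the log2 scale (SE 0.15, adjusted p = 8.18e-17), with values of opposite sign in the 2 organs and both KO libraries beyond both *Wt* libraries in each. This was called under all alternatives run.

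For *Ifng* the difference was 0.482 (SE 0.085, adjusted p = 7.03e-06), with higher levels in both KO libraries of each organ. It was 0.766 with the GC trend removed, and it was not called with an assumed coefficient of variation of 0.2 (0.506, adjusted p = 0.446). For *Ltb* the difference was 0.629 (SE 0.095, adjusted p = 4.86e-07), and it turned to -0.132 (adjusted p = 0.19) with the GC trend removed.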

How the results depend on the processing

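Of 488 repeats of a member's log2 difference under an alternative, 442 kept direction and side of the threshold, 17 lost the call, 8 gained one and 21 changed sign, all of the last in *Ltb* and *Flt3l*. The cause of these changes was not tested. With the GC offset alone and then with the replicate block, *Ltb* was at -0.163 and -0.148 for KO against *Wt* in lung and at -0.132 and -0.128 for the difference between organs. *Flt3l* was at 0.00918 and 0.00889 for KO in spleen, 0.131 and 0.134 for lung against spleen in *Wt*, and -0.336 and -0.338 for the difference of the KO effects. *Flt3l* in KO lung against KO spleen, near 0 as reported, was at 0.0169 in DESeq2, 5.26e-05 with RLE scaling, 0.0527 with library totals, 0.0154 with at least 10 counts in every library and 0.0338 with the assumed coefficient of variation. Leaving out each library gave ranges for *Flt3l* of -0.0521 to 0.0112 for lung against spleen in *Wt*, -0.0197 to 0.105 in KO, and -0.00896 to 0.116 for the difference of the KO effects.

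Counts over all genes depended on the assumed spread. With a coefficient of variation of 0.2, 1557 and 1144 genes were called for KO in lung and spleen, 2011 and 2316 for the organs in *Wt* and KO, and 2017 for the difference of the KO effects, in place of 7000, 7195, 7185, 8259 and 7753, and 1, 2 and 1 members for KO in spleen, the organs in *Wt* and the difference. DESeq2 called 4507 and 4165 genes for KO in lung and spleen. Without 1 library the spleen KO count ranged from 4393, without KO spleen replicate 2, to 7266. Library totals moved the median of all genes by -0.107 for the organs in *Wt* and by 0.16 for the difference of the KO effects, and changed the split of calls in KO lung from 3674 higher and 3326 lower to 4419 and 2561, for the organs in *Wt* from 3495 and 3690 to 2674 and 4579, and for the difference of the KO effects from 4099 and 3654 to 4900 and 2819.

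Equal replicate numbers did not pair the libraries in the labels, and deviations of same-numbered libraries correlated at -0.0139 in lung and 0.169 in spleen over 5103 genes. With the replicate block, *Ifng* differed by 0.968 and 0.486 and *Osm* by 1.47 and -1.05 in lung and spleen, and no call of a member changed. Of the 24 listed genes named for KO lung, 5 lost the call under the GC offset, 5 in DESeq2, 14 with the assumed coefficient of variation and 5 without some library, and of the 25 for KO spleen 6, 12, 21 and 16 did so, with no change of sign. The depth limits *Tnf*, *Lta*, *Csf1* and *Csf2*, whose highest count in a library was 43 reads.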

Other observations

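Beside the 8 genes, 20 other cytokine genes were counted, of which 6 passed the filter. *Il16* was the highest of them in CPM, at 162 ± 6.7 in *Wt* lung, 170 ± 1.6 in KO lung, 211 ± 0.15 in *Wt* spleen and 201 ± 4.3 in KO spleen (SD, n = 2). In *Wt*, none was higher and 2 were lower in lung than in spleen, *Tnfsf14* by a log2 difference of -1.06 (adjusted p = 1.7e-10) and *Il16* by -0.39 (adjusted p = 5.9e-08), in edgeR's quasi-likelihood test. Of all genes tested, 57.0% were called between the organs in *Wt*, 55.6% for KO in lung and 57.1% for KO in spleen. In KO lung 1 of the 6, *Tgfb1*, was higher than in *Wt* (0.43, adjusted p = 0.03), a call lost in DESeq2 (adjusted p = 0.273) and under the GC offset (0.307). In KO spleen *Il2* (1.10, adjusted p = 0.00556) and *Mif* (0.31, adjusted p = 0.0147) were higher and *Tnfsf14* was lower (-0.31, adjusted p = 0.00204), and each of these calls was lost in DESeq2 (adjusted p = 0.345, 0.211 and 0.182) and without KO spleen replicate 2 (0.528, 0.171 and 0.276). *Il2* was at 1.64 ± 0.5 CPM in *Wt* spleen and 2.85 ± 0.79 in KO spleen (SD, n = 2). No read of *Il3*, *Il5*, *Il13*, *Il17a*, *Il17f*, *Il21* or *Il22* was counted in any library.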
